A study of Mus musculus with 6 samples.

Results

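Hedgehog signalling was followed through 9 genes chosen by name out of the 31053 genes in the count tables: the ligand gene Shh, the receptor gene Ptch1, the co-receptor genes Boc and Gas1, the ligand-binding inhibitor gene Hhip, the signal transducer gene Smo and the transcription factor genes Gli1, Gli2 and Gli3. Each of the 9 was detected in every library, and each passed the filter on low counts when all cells of a library were summed. In the vertebrate neural tube, Shh protein from the notochord and the floor plate sets the ventral cell types, with more ligand giving more ventral fates. Ligand bound by Ptch1 frees Smo to act in the primary cilium, and Smo then turns Gli2 and Gli3 away from their processing into repressors, Gli3 being the main repressor in the spinal cord. Ptch1, Gli1 and Hhip are themselves induced by the pathway, Ptch1 and Hhip restrain it, and Boc and Gas1 help ligand to bind and are lowered by signalling in the neural tube.

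The cells came from embryoid bodies, aggregates of differentiating mouse embryonic stem cells, at day 6 of motor neuron differentiation. All were of the HB9::GFP line, a mouse stem cell line with a green fluorescent reporter under control of the motor neuron gene Mnx1 (HB9), and differed in CRISPR/Cas9 editing of the locus of the long non-coding RNA lncMN2. The groups were KO (genotype lncMN2-/-), DeltaSP (genotype lncMN2_SP-/-) and the unedited WT, with 2 clones per genotype, each sequenced as 1 droplet-based 3′ library. The labels do not say which bases each edit removed, and they cite published protocols for the differentiation without naming agents or doses; protocols of this kind drive motor neuron fate with retinoic acid and an agonist of the hedgehog pathway.

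The libraries held 24191242 to 49061693 UMIs (unique molecular identifiers, which tag captured RNA molecules before amplification), and 1612 to 4499 cells of each were kept. WT 1 stood apart: its kept cells had a median of 4157 UMIs, against 11898.5 to 15112 in the other 5 libraries, and it supplied 1162 of the 1200 cells of the cluster led by Gm11361 and 979 of the 1109 cells of the cluster led by Gm2694. No pair of libraries shared more than 11 cell barcodes. The targeted transcript 5330434G04Rik (chrX:105348282-105391776, minus strand) stood at 0.1245 and 0.1704 CPM (UMIs scaled to a common library total, here after TMM normalization) in the KO libraries, 22.4 and 23.3 in the DeltaSP libraries and 37.4 and 34.8 in the WT libraries. Clusters were named from marker genes that hold none of the 9 hedgehog genes, and the wider hedgehog pathway list was kept out of the clustering, so levels of the 9 genes between clusters were not used to draw them.

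The 9 genes took different places among the 15 clusters with enough cells. Shh averaged 334 ± 144 CPM (SD over libraries, n = 6) in the floor plate-like cluster, whose raised markers included Foxa2, Ntn1, Spon1, Sulf1, Lmx1b and Slit1, and 34.6 or less in each of the other clusters. The second highest Shh mean, 34.6 ± 36.8 CPM (n = 3), was in a progenitor-like cluster led by interferon-induced genes (Oasl2, Bst2, Ifit3). Single libraries lay between 0 and 73.2 CPM there, the 0 being that of KO 2. Most cells of that cluster were DeltaSP, with 117 and 96 cells in DeltaSP, 3 and 25 in KO and 0 and 0 in WT. Its spread therefore mixes genotypes and cell numbers. Ptch1 was highest in the progenitor-like cluster led by Sfrp2, Nkx2-9 and Fgfbp3, at 224 ± 24.1 CPM, and Smo was highest in the same cluster at 118.5 ± 13.3 CPM, followed by the floor plate-like cluster at 114 ± 12.7 CPM, a gap smaller than either spread. Gli1 led in the unnamed cluster of Atf3 and Junb at 20.3 ± 8.18 CPM, a level that overlapped the next cluster at 17.2 ± 5.61 CPM.

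Gli2, Gli3, Hhip, Boc and Gas1 had their highest means in another unnamed cluster, led by Stra8, H19 and Tgfbi. It carried mesoderm or mesenchyme markers such as Col1a1, Twist1 and Pdgfra together with the germ cell markers Dazl, Stra8 and Ddx4, and it split into a mesoderm or mesenchyme-like cluster and a germ cell-like cluster at a finer resolution. Gas1 averaged 214 ± 63.7 CPM there, against 60.3 ± 17.1 CPM in the floor plate-like cluster, the next in order, and the lowest library of the first (118 CPM) lay above the highest of the second (81.2 CPM). Gli3 averaged 35.8 ± 12.6 CPM there, against 15.4 ± 4.17 CPM in the floor plate-like cluster and 15.1 ± 5.58 CPM in the Sfrp2 cluster, which did not differ beyond their spread. For Gli2 (10.4 ± 4.86 CPM) and Boc (8.33 ± 1.75 CPM) the next clusters, at 7.82 ± 1.92 and 7.42 ± 1.08 CPM, lay within the spread.

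Down the other end of the order, the neuron-like clusters held least of most of these genes. Gli1 averaged 0.255 to 1.93 CPM over the 7 neuron-like clusters, Gli2 0.0751 to 1.88 CPM and Gli3 0.501 to 3.85 CPM, each with several libraries at 0 UMIs in single clusters. The interneuron-like cluster led by Pnoc kept more Hhip (11.6 ± 4.90 CPM) than the floor plate-like cluster (2.43 ± 0.622 CPM), and its lowest library, at 4.93 CPM, lay above the highest floor plate-like library, at 3.31 CPM. Gas1 broke the order: the motor neuron-like cluster led by Sst and Uts2b held 54.2 ± 18.5 CPM (n = 5), within the spread of the floor plate-like level. These cluster levels are plain CPM, relative to all UMIs of a library's cells in the cluster, over the 2 to 6 libraries with at least 20 cells there, and are described without a test.

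**Figure D1:**
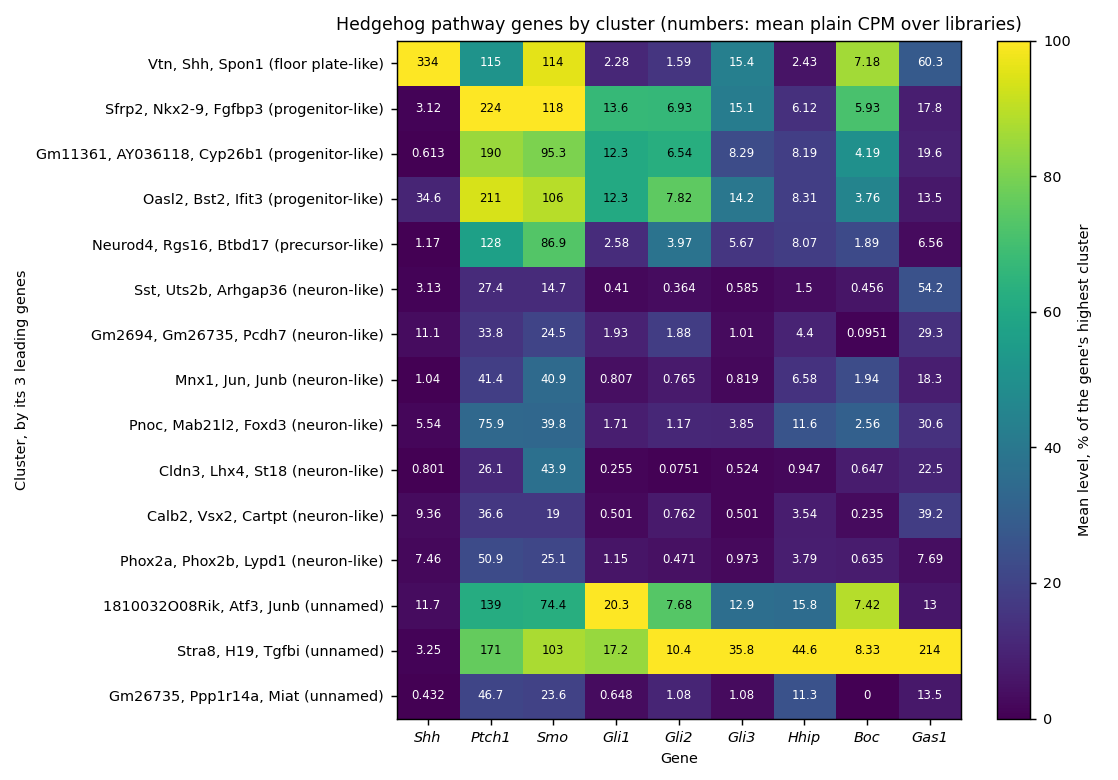
Mean level of each hedgehog gene (columns) in 15 clusters (rows, by their 3 leading genes and class); numbers are plain CPM averaged over the libraries with at least 20 cells in the cluster, and colour gives the level as a percentage of that gene's highest cluster. Shh stands out in 1 cluster at 334 CPM. Ptch1, Smo and the Gli genes are low in neuron-like clusters and spread over progenitor-like and some unnamed ones. The Gli genes have their highest means in unnamed clusters, and Gli1 and Gli2 are also low in the floor plate-like cluster (2.28 and 1.59 CPM).

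Floor plate-like cells held most of the Shh UMIs and few of those of Gli1 and Hhip. They were 10.7% and 8.71% of kept cells in the KO libraries, 8.85% and 9.52% in the DeltaSP libraries and 3.76% and 11.3% in the WT libraries. Of each library's Shh UMIs they held 92.5% and 89.1% in KO, 87.5% and 82.8% in DeltaSP and 67.0% and 88.6% in WT. For Gli1 the same shares were 3.51% and 3.47% in KO, 3.90% and 2.42% in DeltaSP and 0% and 2.36% in WT, in each library below the floor plate-like share of cells. The 0% in WT 1 rests on 0 of its 116 Gli1 UMIs. For Hhip they were 2.91% and 2.56% in KO, 2.63% and 4.09% in DeltaSP and 0.935% and 3.76% in WT. Ptch1, also an induced gene, followed the share of cells closely, with 9.22% and 6.36% of its UMIs in KO, 8.62% and 8.98% in DeltaSP and 3.69% and 10.7% in WT.

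Set against the other progenitor-like cells of the same library, a comparison added after the clusters were seen, 2 of the 9 genes were higher and 4 lower, with library as a block in edgeR's quasi-likelihood test. Over all 11108 genes tested in that comparison 49.9% passed, 23.5% higher and 26.4% lower, so the number that passed says little and the sizes carry the description. Shh (chr5:28456815-28467256, minus strand) had 366 and 352 CPM in floor plate-like cells of KO, 336 and 261 in DeltaSP and 100 and 508 in WT, against 1.79 and 2.20 CPM in the other progenitor-like cells of KO, 8.75 and 10.3 in DeltaSP and 1.67 and 5.81 in WT. The lowest floor plate-like value, that of WT 1, was above every value of the other cells. The fitted log2 difference was 5.88 ± 0.19 (SE; adjusted p = 2.14e-15, edgeR), higher in 6 of 6 libraries, where 2.1% of all genes passed with a rise of over 2.

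Ligand reception moved in both directions. Gas1 (chr13:60174405-60177365, minus strand), the co-receptor gene, had 69.5 and 51.4 CPM in floor plate-like cells of KO, 56.9 and 54.2 in DeltaSP and 90.9 and 33.5 in WT, against 21.8 and 15.6 CPM in the other progenitor-like cells of KO, 14.9 and 14.2 in DeltaSP and 18.1 and 20.9 in WT. It was higher in 6 of 6 libraries, by 1.72 ± 0.12 on the log2 scale (adjusted p = 2.47e-10), and the 2 sets of values did not overlap. Ptch1 (chr13:63508328-63573598, minus strand) had 111 and 103 CPM in floor plate-like cells of KO, 113 and 107 in DeltaSP and 145 and 97.9 in WT, against 238 and 214 CPM in the other progenitor-like cells of KO, 229 and 203 in DeltaSP and 267 and 226 in WT. Every floor plate-like value lay below every other progenitor-like value, and the log2 difference was -1.04 ± 0.05 (adjusted p = 1.85e-13). Boc, at 7.10 ± 2.25 CPM in floor plate-like cells and 5.75 ± 0.803 CPM in the others (SD, n = 6), did not pass (0.21 ± 0.18, adjusted p = 0.355).

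Gli1, Gli2 and Hhip were lower in floor plate-like cells. Gli1 (chr10:127329882-127341974, minus strand), a transcription factor gene read as a direct output of hedgehog signalling, had 2.41 and 4.31 CPM in floor plate-like cells of KO, 2.70 and 2.26 in DeltaSP and 0 and 1.05 in WT, against 13.8 and 16.9 CPM in the other progenitor-like cells of KO, 10.99 and 14.6 in DeltaSP and 15 and 9.68 in WT. These values rest on 0 to 13 floor plate-like UMIs per library, and all 6 libraries were lower, by a fitted -2.45 ± 0.19 (adjusted p = 1.93e-09). Gli2, the main activator of the pathway, was at 1.54 ± 0.486 CPM in floor plate-like cells and 6.77 ± 1.12 CPM in the others (-2.15 ± 0.22, adjusted p = 9.1e-08), and Hhip at 2.38 ± 0.637 and 6.20 ± 0.748 CPM (-1.30 ± 0.20, adjusted p = 2.19e-05), both lower in 6 of 6 libraries. Gli1 and Gli2 were among the 0.621% of genes that passed with a fall of over 2.

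Smo and Gli3 did not share that fall. Smo averaged 111 ± 12.9 CPM in floor plate-like cells and 114 ± 12.9 CPM in the others (-0.09 ± 0.05, adjusted p = 0.197), and Gli3 14.95 ± 3.46 and 14.2 ± 5.02 CPM (-0.01 ± 0.13, adjusted p = 0.94). With any 1 library left out, the 6 genes that passed still passed and these 3, Boc included, still did not. Shh ranged from 5.60 to 6.43 in these fits.

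**Figure D2:**
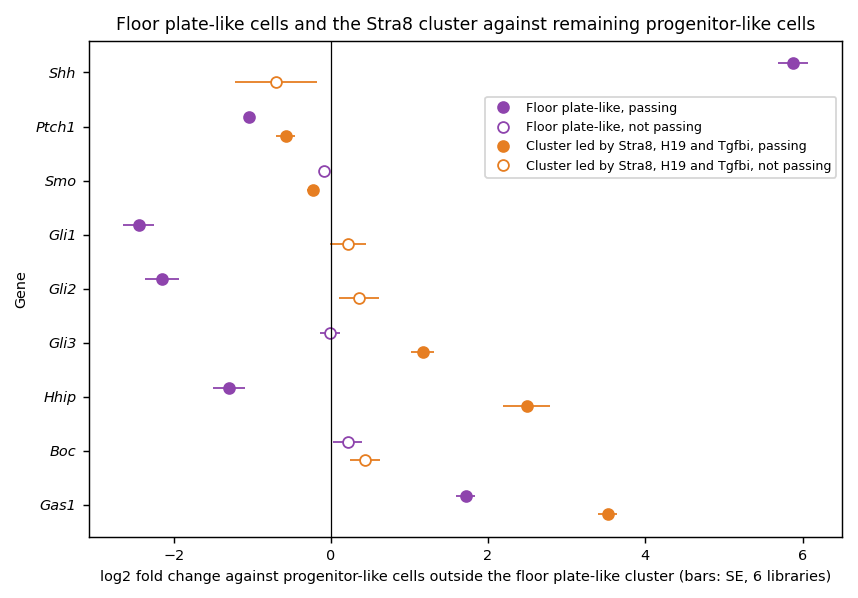
Log2 fold change (x axis) of each hedgehog gene in floor plate-like cells and in the cluster led by Stra8, H19 and Tgfbi, each against the progenitor-like cells outside the floor plate-like cluster in the same libraries; points are fitted values, bars their SE, filled points pass at an adjusted p of 0.05. In floor plate-like cells Shh stands at 5.88 and Gas1 at 1.72, while Gli1, Gli2, Hhip and Ptch1 are below 0; in the other cluster Gas1 stands at 3.52 and Hhip at 2.49.

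The start regions of 6 of the 9 genes, Ptch1, Smo, Gli2, Gli3, Hhip and Gas1, were matched in RefSeq's promoter table for GRCm38.p6, each 300 bases long. The 3 of these that were lower in floor plate-like cells and the 1 that was higher are printed here 5′ to 3′ on the gene's strand, because Gli proteins act through DNA near their targets.
Ptch1, chr13:63565686-63565985, minus strand: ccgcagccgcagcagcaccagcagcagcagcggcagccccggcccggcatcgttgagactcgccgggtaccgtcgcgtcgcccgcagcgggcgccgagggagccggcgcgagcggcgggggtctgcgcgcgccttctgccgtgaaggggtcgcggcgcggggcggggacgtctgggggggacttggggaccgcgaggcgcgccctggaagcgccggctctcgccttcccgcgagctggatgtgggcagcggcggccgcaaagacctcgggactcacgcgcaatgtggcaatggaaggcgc
Gli2, chr1:119053570-119053869, minus strand: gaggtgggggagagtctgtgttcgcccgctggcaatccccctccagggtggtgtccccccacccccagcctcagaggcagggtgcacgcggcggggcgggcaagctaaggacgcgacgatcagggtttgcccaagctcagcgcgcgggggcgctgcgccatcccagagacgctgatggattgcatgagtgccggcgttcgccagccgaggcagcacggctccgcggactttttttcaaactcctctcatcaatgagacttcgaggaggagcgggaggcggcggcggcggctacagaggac
Hhip, chr8:80057959-80058258, minus strand: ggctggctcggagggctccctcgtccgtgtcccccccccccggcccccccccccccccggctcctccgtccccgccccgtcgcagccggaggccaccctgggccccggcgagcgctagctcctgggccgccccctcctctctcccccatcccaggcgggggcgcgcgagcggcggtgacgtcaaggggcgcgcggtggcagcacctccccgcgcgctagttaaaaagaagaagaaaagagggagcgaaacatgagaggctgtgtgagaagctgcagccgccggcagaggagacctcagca
Gas1, chr13:60177486-60177785, minus strand: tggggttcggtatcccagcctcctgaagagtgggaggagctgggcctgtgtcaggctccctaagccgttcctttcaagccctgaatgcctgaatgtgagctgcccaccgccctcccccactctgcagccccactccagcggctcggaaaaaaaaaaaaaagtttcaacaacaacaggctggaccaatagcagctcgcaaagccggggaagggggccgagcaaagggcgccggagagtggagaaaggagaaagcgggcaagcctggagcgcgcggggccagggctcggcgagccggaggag
None of the 6 held the Gli motif GACCACCCA or its shorter core CCACCCA on either strand, the second being contained in the first, so no letters are in capitals. The longer form was held by 0.253% and the shorter by 9.3% of all 32851 promoters of that length. The letters are absent from these windows only, and binding was not measured. The Ptch1 window lay inside the gene's annotated span, away from its 5′ end at chr13 base 63573598, and the region at that end was not searched. The Gas1 window lay wholly upstream of that gene's annotated 5′ end at chr13 base 60177365. The Gli3 window, chr13:15463473-15463772, lay inside the gene, whose annotated 5′ end is at base 15463235. These ends too lay outside the windows searched.

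Among floor plate-like cells, Shh differed mainly between the 2 WT clones. Scaled within these cells, Shh stood at 375 and 361 CPM in KO, 344 and 268 in DeltaSP and 103 and 521 in WT. The KO and DeltaSP libraries all lay between the 2 WT libraries, and KO did not pass against WT (0.17 ± 0.49, adjusted p = 0.897). Per cell the median was 3 and 3 Shh UMIs in KO, 2 and 1 in DeltaSP and 0 and 5 in WT, with a highest cell of 36 and 39 UMIs in KO, 47 and 29 in DeltaSP and 10 and 37 in WT.

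The shallow depth of WT 1 lowers its chance of a UMI in any cell, so cells were also thinned to 3000 UMIs each. The share of floor plate-like cells with a Shh UMI was 69.7% and 72.1% in KO, 66.8% and 61.2% in DeltaSP and 23.7% and 83.0% in WT before thinning. After thinning it was 51.4% and 53.0% in KO, 45.0% and 41.0% in DeltaSP and 17.3% and 62.4% in WT, and the exact 95% binomial interval of WT 1, 11.3% to 24.8%, overlapped none of the others, the nearest running from 35.5% to 46.6%. Thinning left out 36 of the 169 floor plate-like cells of WT 1 and 9 to 28 in each of the other libraries. The interval covers counting error only.

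Of 9 floor plate markers other than Shh, 5 were also lowest in WT 1, among them Foxa2, Ntn1, Lmx1b and Slit1. In floor plate-like cells Foxa2, which specifies the floor plate, stood at 181 and 197 CPM in KO, 179 and 154 in DeltaSP and 98.3 and 186 in WT. Ntn1, the gene of the guidance factor netrin, stood at 816 and 891 CPM in KO, 955 and 552 in DeltaSP and 452 and 672 in WT. Spon1, Sulf1 and Foxa1 were lowest in DeltaSP 2, Spon1 at 316 and 383 CPM in KO, 394 and 261 in DeltaSP and 301 and 657 in WT. Ferd3l was lowest in KO 1, at 4.57 CPM, and highest in WT 1, at 9.98 CPM from 7 UMIs. On the same plain CPM scale Shh stood at 89.8 in WT 1 and at 255 in the next library, DeltaSP 2. The part of depth or of cluster membership in this gap was not tested.

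**Figure D3:**
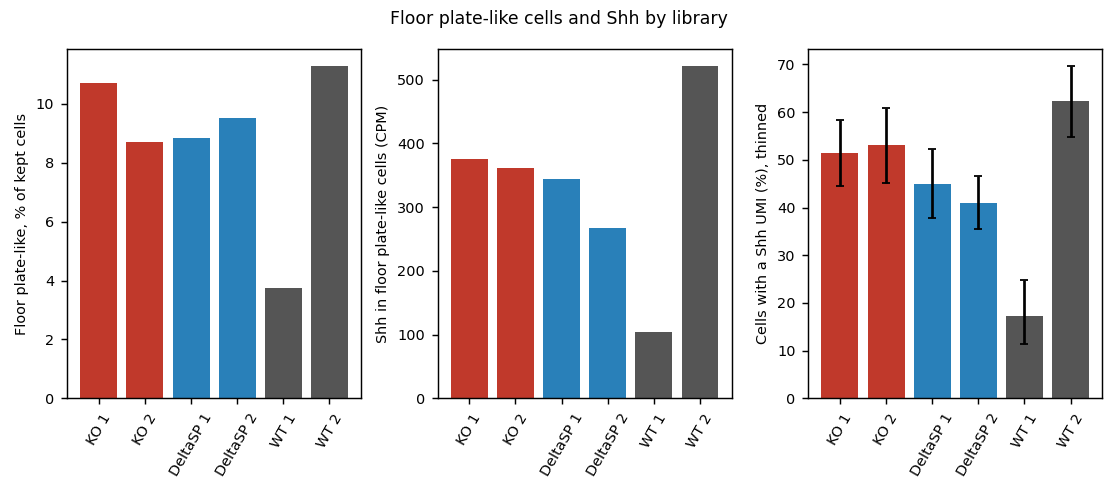
Per library, the floor plate-like share of kept cells (left), Shh in floor plate-like cells in TMM-scaled CPM (middle) and the share of floor plate-like cells with a Shh UMI after thinning to 3000 UMIs, with exact 95% binomial intervals (right). WT 1 is lowest in each panel (3.76%, 103 CPM and 17.3%) and WT 2 highest (11.3%, 521 CPM and 62.4%).

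Shh was low when all neuron-like cells of a library were summed. It stood at 0.65% to 1.75% of the floor plate-like level of the same library, while the floor plate marker Foxa2, which neuron-like cells should lack, was at 0.831% to 2.33%. The share of neuron-like cells with a Shh UMI was 0.333% to 1.12% after thinning and 0.422% to 5.74% before. The level of free RNA was not measured, and at shares below those of a marker these cells should lack, no Shh expression is read from the neuron-like sums. Single clusters held more in some libraries: Shh reached 51.1 CPM, from 17 UMIs in 24 cells, in the Calb2 cluster of KO 2, 43.6 CPM, from 14 UMIs in 55 cells, in the Gm2694 cluster of WT 2 and, from 21 and 32 UMIs, 16.3 and 23.6 CPM in the Phox2a cluster of KO. Each of these clusters also had a library at 0. In the Oasl2 cluster it stood at 30.5 and 73.2 CPM in DeltaSP, from 55 and 108 UMIs, and at 0 in KO 2.

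The cluster led by Stra8, H19 and Tgfbi, which is unnamed and not progenitor-like, was set in the same added way against the progenitor-like cells outside the floor plate-like cluster, and 5 of the 9 genes passed. Here 56% of 11364 genes passed, 27.2% higher and 28.8% lower. The fit was added after the clusters were seen, and Gli2, Gli3, Hhip, Boc and Gas1 had their highest means in this cluster. Their p-values here therefore give no support beyond those means, and the sizes are given as description. Gas1 averaged 204 ± 54.1 CPM in this cluster and 17.9 ± 3.26 CPM in those progenitor-like cells (3.52 ± 0.12, adjusted p = 3.03e-11), and its lowest library of the cluster, at 122 CPM, was above the highest of the other cells, at 22.2 CPM. Hhip, the ligand-binding inhibitor, had 26.4 and 9.73 CPM in the cluster in KO, 65.7 and 25.1 in DeltaSP and 57.4 and 81.0 in WT, against 5.43 to 7.49 CPM in the other cells. All 6 libraries were higher (2.49 ± 0.30, adjusted p = 7.67e-06), KO 2 by least. A rise of over 2, shared by Gas1 and Hhip, was passed by 4.61% of all genes.

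Gli3 was also higher in that cluster (34.2 ± 10.7 against 14.4 ± 5.10 CPM; 1.17 ± 0.15, adjusted p = 1.15e-05), in 6 of 6 libraries. Ptch1 was lower in 6 of 6 libraries (168 ± 58.5 against 234 ± 22.2 CPM; -0.57 ± 0.12, adjusted p = 0.00102), and Smo was lower in 5 of 6 (97.9 ± 23.2 against 116 ± 13.2 CPM; -0.23 ± 0.07, adjusted p = 0.0159), a call that was lost without DeltaSP 2 (-0.15, adjusted p = 0.175). Gli1, Gli2, Boc and Shh did not pass, though without KO 2 Shh did (-1.67, adjusted p = 0.00136). Where the finer clustering parted the cells, Hhip averaged 56.8 ± 23.2 CPM in mesoderm or mesenchyme-like cells (n = 6). It averaged 5.08 ± 3.55 CPM in germ cell-like cells (n = 3), where only KO 1, KO 2 and DeltaSP 2 had enough cells (76, 65 and 126). The makeup of the whole cluster thus differed between libraries, and its part in the Hhip values by genotype was not tested. The Hhip ranges in the finer clusters, 29.7 to 92.5 and 1.94 to 8.94 CPM, did not overlap. Gli1 likewise averaged 21.6 ± 6.18 and 7.35 ± 1.22 CPM in these clusters, whereas Gas1, at 236 ± 72.2 and 210 ± 55.8 CPM, overlapped.

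Between neuron-like and progenitor-like cells, 8 of the 9 genes were lower in neuron-like cells in all 6 libraries and Gas1 was higher in 5 of 6. All 9 passed with library as a block, where 82.7% of the 12706 genes tested passed, so passing alone says nothing particular. The median log2 difference of the 9 was -3.03, against -0.01 over all genes tested. A passing fall of over 2 was found for 7 of the 9 (all but Hhip and Gas1) and for 7.04% of all genes.

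Ptch1, the receptor, had 32.7 and 40.4 CPM in neuron-like cells of KO, 28.8 and 31.9 in DeltaSP and 47.5 and 33.2 in WT, against 207 and 204 CPM in progenitor-like cells of KO, 202 and 181 in DeltaSP and 254 and 181 in WT. The classes did not overlap (-2.53 ± 0.06, adjusted p = 5.55e-11). Smo, the transducer, had 19.9 to 29.8 CPM in neuron-like cells and 97.8 to 130 CPM in progenitor-like cells (-2.27 ± 0.08, adjusted p = 3.44e-10), and Boc 0.410 to 1.004 and 5.60 to 6.51 CPM (-3.03 ± 0.18, adjusted p = 3.55e-08). Hhip fell least, at 2.70 ± 0.706 CPM in neuron-like cells and 5.37 ± 0.498 CPM in progenitor-like cells (-0.99 ± 0.15, adjusted p = 8.1e-05).

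After Shh, the Gli genes differed most between the classes. Gli1 had 0.387 and 0.884 CPM in neuron-like cells of KO, 0.335 and 0.555 in DeltaSP and 0.758 and 0.0821 in WT, from 1 to 9 UMIs per library, against 10.8 and 15.4 CPM in progenitor-like cells of KO, 8.95 and 11.7 in DeltaSP and 13.3 and 6.64 in WT. Its log2 difference was -4.49 ± 0.18 (adjusted p = 1.1e-09). Gli2 and Gli3 differed by -3.47 ± 0.19 (adjusted p = 1.4e-08) and -3.97 ± 0.15 (adjusted p = 7.9e-10). Shh differed by -4.72 ± 0.21 (adjusted p = 2.42e-09), with the floor plate-like cells, which hold most Shh UMIs, counted among the progenitor-like.

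Gas1 went the other way. It had 41.1 and 42.7 CPM in neuron-like cells of KO, 28.0 and 35.5 in DeltaSP and 25.7 and 30.4 in WT, against 36.2 and 22.9 CPM in progenitor-like cells of KO, 26.4 and 24.8 in DeltaSP and 26.7 and 25.5 in WT. The classes overlapped, the difference was small (0.34 ± 0.11, adjusted p = 0.0127), and it did not pass with cells of lower quality kept (0.14, adjusted p = 0.216) or without DeltaSP 2 (0.32, adjusted p = 0.0528). WT 1 alone had the lower value in neuron-like cells.

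**Figure D4:**
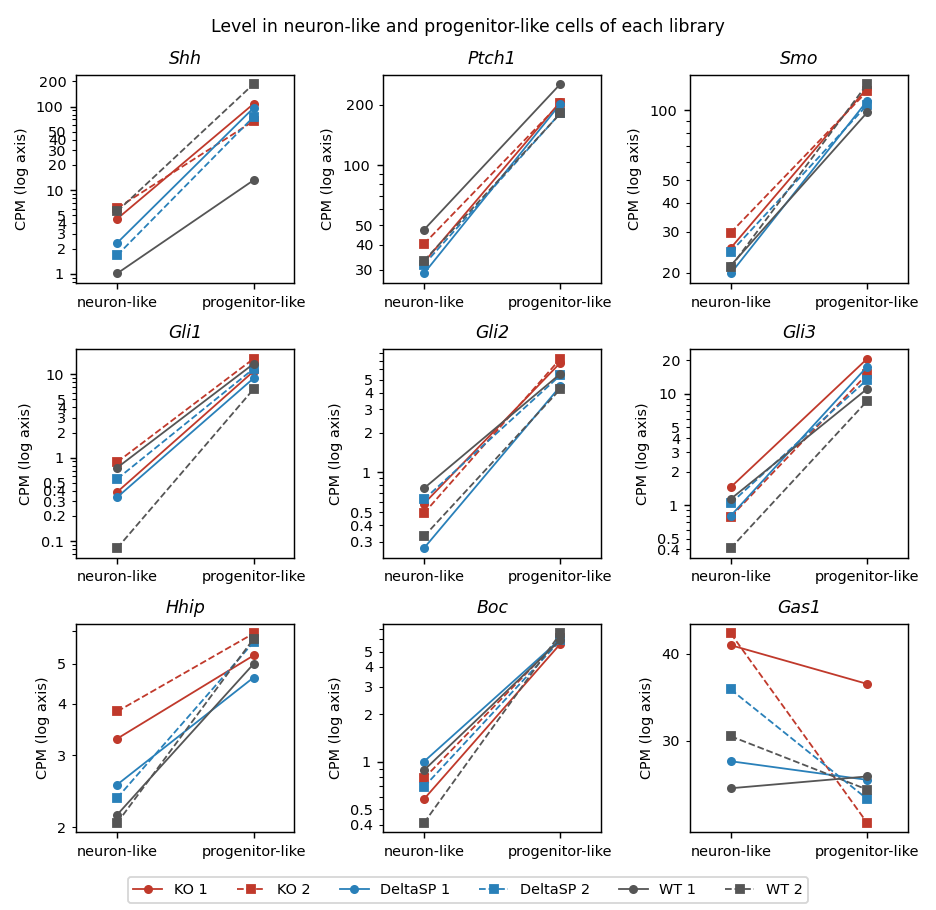
Level of each hedgehog gene (y axis, TMM-scaled CPM, log axis, scale differing between panels) in neuron-like and progenitor-like cells, with a line joining the 2 values of each library. Every line of 8 genes climbs to the right, and for Gas1 5 of 6 lines fall.

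The rest of the pathway, taken from lists of known components, was less uniform between these classes; the genes named were chosen after their values were seen. Of 9 receptor and surface inhibitor genes 8 were lower in neuron-like cells and 1, Gas1, was higher, with Lrp2, an endocytic co-receptor, at -4.64 ± 0.20, the glypican gene Gpc3 at -3.49 ± 0.12 and the co-receptor gene Cdon at -1.24 ± 0.17. Of 20 transduction genes tested 7 were lower and 8 higher. Evc (-3.23 ± 0.19) and Evc2 (-2.05 ± 0.14), ciliary partners of Smo, Kif7 (-2.16 ± 0.14), a ciliary kinesin that regulates Gli processing, and Sufu (-1.07 ± 0.08), which holds Gli proteins inactive, were lower. Gsk3b (1.24 ± 0.03) and the protein kinase A subunit gene Prkacb (0.64 ± 0.06), both of which promote Gli processing and have many other roles, were higher. Of 21 cilium genes 11 were lower and 4 higher, with the kinesin subunit gene Kif3a, also used in axonal transport, at 1.25 ± 0.06. Lists of ventral patterning genes (6 of 8 lower, 1 higher) and other reported targets (7 of 7 tested lower) leaned down. Dorsal or intermediate patterning genes, which hedgehog holds down, did not (2 of 6 tested lower, 3 higher, median log2 difference 0.68). Ligand and release genes had 2 of 5 tested lower and 0 higher. Of all genes 41.9% were lower and 40.8% higher.

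Between genotypes, with all cells of a library summed, 1 of the 9 genes passed: Gli3 was higher in KO than in WT. Smo and Gas1 had higher values in KO without passing, and none of the 9 passed between DeltaSP and WT or between KO and DeltaSP. Of all 14900 genes 7.52% passed in KO against WT and 2.81% were higher, so 1 call among 9 genes is not a result about the group. In bulk sums of this kind, fewer cells of a type and less RNA per cell cannot be told apart.

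Gli3 (chr13:15463235-15730026, plus strand) had 13.9 and 10.2 CPM in KO, 10.8 and 9.97 in DeltaSP and 6.23 and 5.02 in WT. All edited libraries lay above both WT libraries, a placing that 30.1% of all genes had for KO and 24.9% for DeltaSP. The log2 difference was 1.11 ± 0.22 in KO against WT (adjusted p = 0.0375, edgeR) and 0.89 ± 0.22 in DeltaSP against WT (adjusted p = 0.163). The KO call was lost when WT 1 (adjusted p = 0.0601), DeltaSP 1 (0.0538), DeltaSP 2 (0.0525), KO 1 (0.153) or KO 2 (0.257) was left out, and held without WT 2 (0.0433), while the difference stayed between 0.88 and 1.32.

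Cell makeup moved with this difference, and its part in it was not tested beyond the values within classes given here. Progenitor-like cells, where Gli3 is higher than in neuron-like cells, were 37.1% and 48.3% of cells in KO, 34.6% and 37.0% in DeltaSP and 29.9% and 31.4% in WT. The Stra8, H19 and Tgfbi cluster, where Gli3 and Gas1 had their highest means, was 6.95% and 4.76% of cells in KO, 4.51% and 7.61% in DeltaSP and 1.73% and 2.73% in WT, so both WT libraries were lowest. Within progenitor-like cells, which leave that cluster out and count the floor plate-like cells in, Gli3 had 19.8 and 14.2 CPM in KO, 17.02 and 13.3 in DeltaSP and 10.9 and 8.39 in WT. The edited libraries still lay above WT without overlap, as 25.7% of all genes tested there did for KO and 23.6% for DeltaSP. The KO difference, 0.83 ± 0.25, did not pass (adjusted p = 0.139, and DeltaSP against WT 0.66 ± 0.25, adjusted p = 0.316). With no filter on low counts it passed in KO against WT (0.87, adjusted p = 0.00545). Different clusters held these cells: the Sfrp2 cluster had 558 and 807 cells in KO, 464 and 881 in DeltaSP and 12 and 304 in WT, and the Gm11361 cluster 0 and 0 in KO, 6 and 12 in DeltaSP and 1162 and 20 in WT. In the Sfrp2 cluster Gli3 had 22.5 and 15.6 plain CPM in KO, 16.9 and 13.1 in DeltaSP and 7.2 in WT 2, while WT 1 had too few cells there and 8.58 plain CPM in the Gm11361 cluster. Within floor plate-like cells Gli3 had 16.0 and 18.0 CPM in KO, 18.1 and 11.8 in DeltaSP and 18.0 and 10.0 in WT, which overlapped (KO against WT 0.50 ± 0.35, adjusted p = 0.5).

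Gas1 had 50.6 and 36.9 CPM in KO, 31.1 and 40.0 in DeltaSP and 27.6 and 27.6 in WT. All 4 edited libraries were above both WT libraries, and the KO difference, 0.66 ± 0.20, did not pass (adjusted p = 0.0783). In neuron-like cells Gas1 had 42.5 and 44.2 CPM in KO, 28.9 and 36.7 in DeltaSP and 26.5 and 31.4 in WT (KO against WT 0.58 ± 0.17, adjusted p = 0.0978), and in progenitor-like cells the 6 libraries ran from 21.5 to 34.7 CPM with KO holding both ends. Smo had 80.9 and 86.0 CPM in KO, 67.5 and 70.3 in DeltaSP and 55.3 and 70.5 in WT (KO against WT 0.41 ± 0.15, adjusted p = 0.129).

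Values in KO did not overlap with those in WT and were higher for 6 of the 9 genes, namely Smo, Gli1, Gli2, Gli3, Boc and Gas1, where 30.1% of all genes were higher without overlap and 59.3% did not overlap in either direction, over libraries of 2 clones each. Gli1 had 7.10 and 10.7 CPM in KO, 6.16 and 9.03 in DeltaSP and 6.57 and 4.87 in WT (KO against WT 0.64 ± 0.30, adjusted p = 0.2). Gli2 had 4.54 and 4.92 CPM in KO, 3.39 and 4.01 in DeltaSP and 3.68 and 2.91 in WT (0.53 ± 0.25, adjusted p = 0.209). Boc had 4.01 and 4.06 CPM in KO, 3.92 and 3.86 in DeltaSP and 3.34 and 3.53 in WT (0.23 ± 0.23, adjusted p = 0.534). For Boc the gap was small against its fitted error, and in progenitor-like cells its order was the other way, with 5.36 and 5.70 CPM in KO and 5.80 and 6.32 in WT.

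Ptch1, Hhip and Shh overlapped between KO and WT. Ptch1 had 125 and 139 CPM in KO, 117 and 116 in DeltaSP and 140 and 99.9 in WT (KO against WT 0.14 ± 0.18, adjusted p = 0.643). Hhip had 7.50 and 6.65 CPM in KO, 8.11 and 8.01 in DeltaSP and 6.06 and 8.17 in WT (-0.01 ± 0.21, adjusted p = 0.97). Shh had 40.9 and 33.9 CPM in KO, 34.2 and 30.5 in DeltaSP and 5.33 and 62.9 in WT (0.12 ± 0.81, adjusted p = 0.935), so the spread between the 2 WT clones was larger than any difference between genotypes. Without WT 1 the Shh difference was -0.74 (adjusted p = 0.0649). With WT 2 left out, Shh passed in KO against WT over all cells (2.82, adjusted p = 0.00488) and in floor plate-like cells (1.84, adjusted p = 0.0127), which sets KO against WT 1 alone.

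**Figure D5:**
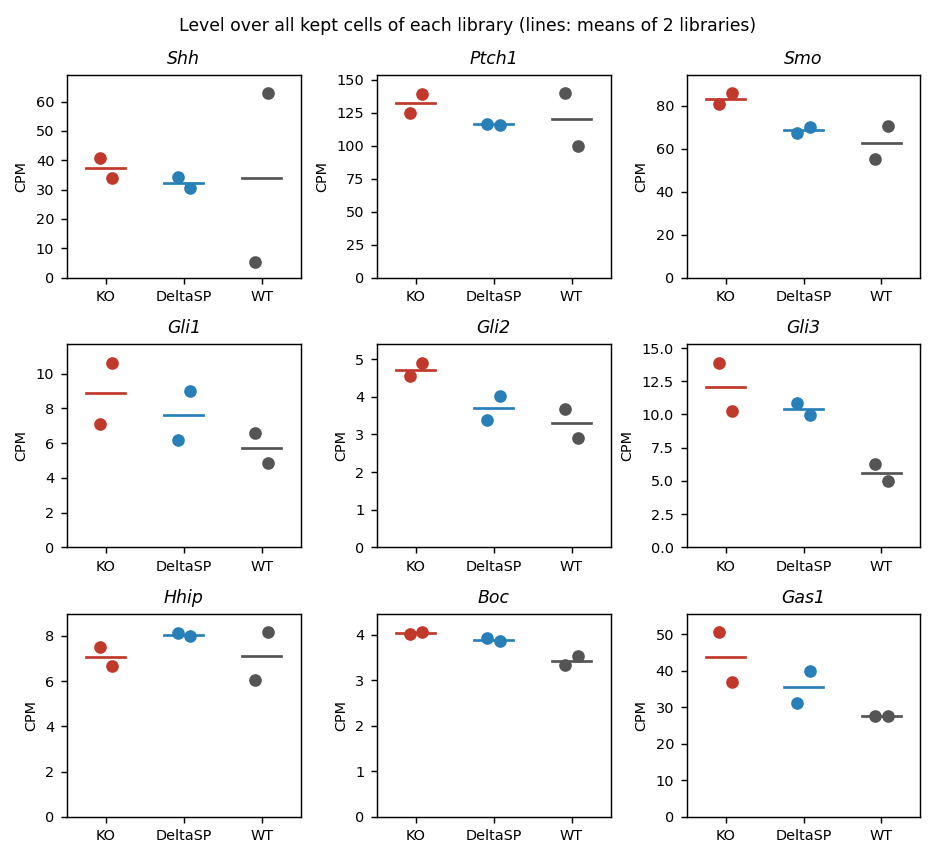
Level of each hedgehog gene over all kept cells (y axis, TMM-scaled CPM from 0) in the KO, DeltaSP and WT libraries; points are libraries and lines the mean of 2. Gli3 is higher in the edited libraries (9.97 to 13.9 CPM) than in WT (5.02 and 6.23 CPM), and the WT clones lie furthest apart for Shh (5.33 and 62.9 CPM).

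Within cell classes none of the 9 genes passed between genotypes in edgeR with all libraries and the filter on low counts kept. With no filter Gli3 passed in progenitor-like cells, as given above. In progenitor-like cells 0 of 9 passed in KO against WT, where 1.58% of 12662 genes passed, with 1 gene, Gli3, at an unadjusted p under 0.05 in edgeR and 0 calls in DESeq2. In neuron-like cells 0 of the 7 tested passed (4.01% of all genes), with 0 calls in DESeq2 and 2 genes, Hhip (0.76 ± 0.31, adjusted p = 0.187) and Gas1, at an unadjusted p under 0.05 in edgeR. Gli1 and Gli2 were too low there to be tested. In floor plate-like cells 0 of the 6 tested passed (3.25% of all genes), 0 in DESeq2 and 0 at an unadjusted p under 0.05 in edgeR, and Gli1, Gli2 and Hhip were too low to be tested. Smo, the 1 member of 6 with lower values in both edited genotypes there without overlap (of all genes, 23.7% were so placed for KO and 21.3% for DeltaSP), stood at 113 and 109 CPM in KO, 105 and 97.4 in DeltaSP and 126 and 133 in WT (DeltaSP against WT -0.36 ± 0.17, adjusted p = 0.383). DeltaSP against WT gave 0 calls by edgeR and by DESeq2 in progenitor-like (0.0079% of all genes, Gli3 at an unadjusted p under 0.05), neuron-like (0.0693%, 0 genes at an unadjusted p under 0.05) and floor plate-like cells (0.11%, 0 genes). KO against DeltaSP also gave 0 calls by either tool in progenitor-like (0.0079%), neuron-like (0.0077%, Gas1 at an unadjusted p under 0.05) and floor plate-like cells (0.00914%).

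In DeltaSP against WT over all cells 0 of 9 passed (0.356% of all genes; Gli3 had an unadjusted p under 0.05 in edgeR and passed in DESeq2's Wald test). In KO against DeltaSP 0 of 9 passed in either tool and 0 had an unadjusted p under 0.05 (0.00671% of all genes). Whether a KO difference differed between neuron-like and progenitor-like cells was tested as an interaction, and 0 of 9 passed (0.0145% of all genes). Shh alone had an unadjusted p under 0.05 there, at 0.91 ± 0.38 (adjusted p = 0.348). For DeltaSP the interaction gave 0 of 9 (0.00726% of all genes), with 0 at an unadjusted p under 0.05. KO and DeltaSP are set against the same WT libraries, so their differences from WT are not independent.

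The wider pathway was followed in KO against WT through lists of its genes. The lists of ligand and release genes (7 tested), receptors and surface inhibitors (9), transduction genes (20) and cilium genes (21) gave 0 calls over all cells in edgeR, where 7.52% of all genes passed. At an unadjusted p under 0.05 they held 0, 2, 5 and 3 genes in that order of lists, against 29.8% of all genes, and DESeq2, read for the 9 genes only, passed Gas1 of the second. Of 8 ventral patterning genes that hedgehog induces, 2 were higher, where 2.81% of all genes were. Olig2, the transcription factor gene of motor neuron progenitors, had 291 and 302 CPM in KO, 250 and 263 in DeltaSP and 179 and 164 in WT (KO against WT 0.79 ± 0.14, adjusted p = 0.032). Olig1 had 103 and 112 CPM in KO, 96.6 and 95.1 in DeltaSP and 44.9 and 67.3 in WT (0.94 ± 0.20, adjusted p = 0.04). For both genes every edited library was above both WT libraries.

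Of 6 dorsal or intermediate patterning genes tested, 1 was lower, where 4.71% of all genes were: Irx5 had 41.9 and 37.8 CPM in KO, 40.4 and 36.0 in DeltaSP and 78.1 and 60.2 in WT (KO against WT -0.79 ± 0.16, adjusted p = 0.0394). Of 12 other reported targets, 1 was higher, against the 2.81% of all genes: Igfbp4, the gene of an insulin-like growth factor binding protein, had 134 and 149 CPM in KO, 122 and 132 in DeltaSP and 68.9 and 82.8 in WT (0.90 ± 0.15, adjusted p = 0.0294). All 4 calls were lost without WT 1 (adjusted p of 0.0551 to 0.0723), KO 1 (0.102 to 0.136) or KO 2 (0.274 to 0.312), and those of Olig1 and Irx5 also without DeltaSP 1 (0.0654 and 0.062) or DeltaSP 2 (0.0633 and 0.0652). No fold change turned round in these fits.

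Within progenitor-like cells Olig1 alone of the lists passed (0.86 ± 0.13, adjusted p = 0.0419; 0.103% of all genes were higher there) and Olig2 did not (0.25 ± 0.23, adjusted p = 0.584). Within neuron-like cells Olig2 (1.01 ± 0.19, adjusted p = 0.0377), Olig1 (0.99 ± 0.21, adjusted p = 0.0474) and Igfbp4 (1.22 ± 0.18, adjusted p = 0.0255) were higher, as were 1.14% of all genes. The Olig1 call in progenitor-like cells was lost without KO 1 (adjusted p = 0.138), KO 2 (0.43), DeltaSP 1 (0.067) or DeltaSP 2 (0.0701), at the finer clustering (0.0725) and with classes drawn from marker UMIs (0.137). The 3 neuron-like calls were lost without WT 1 (0.0553 to 0.0899), KO 1 (0.0945 to 0.215) or KO 2 (0.294 to 0.319), and Olig1 also without DeltaSP 1 (0.0718) or DeltaSP 2 (0.0652). With cells of lower quality kept, Olig1 and Olig2 did not pass in neuron-like cells (0.237 and 0.0544), nor with classes drawn from marker UMIs (0.129 and 0.0731).

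The genes whose levels over the 15 clusters were most like each member were named by Pearson's r of log2(CPM + 1), a description over clusters that share libraries. For Shh they included Vtn (0.926) and Slit1 (0.898), of which Slit1 is among the markers that named the floor plate-like cluster. For Ptch1 they were Ppat (0.971), Topbp1 (0.966) and Tk1 (0.965), for Smo Skp2 (0.966), Brix1 (0.964) and Nxt1 (0.963), and for Boc Trip13 (0.944), Rif1 (0.942) and Tmem107 (0.941). For Gli1 they were Arl4a (0.93), Tcof1 (0.923) and Nfib (0.913), for Gli2 Hmga2 (0.925), Tcof1 (0.923) and Umps (0.918), and for Gli3 Rfc5 (0.98), Cdkn2a (0.971) and Tyms (0.967). Hhip and Gas1 had looser matches, with Fam53a (0.718), Foxf1 (0.712) and Apex1 (0.708) for Hhip and Ctdspl (0.806), Nrip1 (0.775) and Copb2 (0.763) for Gas1. Among the members themselves Gli1 and Gli2 were most alike (0.964), Ptch1 and Gli3 followed at 0.928, and Shh stayed at 0.356 or less with each of the others.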

How the data were processed

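Single-cell 3′ RNA-seq counts of 6 libraries were used. The deposited files hold raw UMI counts, by gene and cell barcode, for which the submitters' processing notes name Cell Ranger 4.0 and mm10. The 9 genes, the pathway lists and the markers were chosen with earlier results of these data known. Genes named beyond the 9 were listed genes passing in KO or DeltaSP against WT (at most 4 per list, by smallest p), the targeted transcript, and the 3 genes most like each member over clusters, among genes reaching 50 CPM in a cluster; pathway genes named between classes, cluster-leading genes and floor plate markers were chosen after their values were seen. Some genes are not reported here.

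Of 24215 barcodes, 16225 were kept, having 1000 or more detected genes and no more than 10% of UMIs from mitochondrial genes. No doublet caller was run and no doublets were removed. Cells were clustered with scanpy 1.11.5 and leidenalg 0.10.2 (2000 variable genes without 40 hedgehog genes, 30 components, 15 neighbours, resolution 0.6). A cluster was named from at least 3 markers raised 2-fold and detected in 5% of its cells. Names rebuilt this way may differ from the study's own.

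Counts were summed per library and cell set and tested with edgeR 4.0.16 (quasi-likelihood, TMM, filterByExpr, Benjamini-Hochberg adjustment over all genes tested, threshold 0.05), on all 6 libraries with genotype as the term. Class comparisons used library as a block, with the levels beside them scaled within that fit. DESeq2 1.42.0 was an alternative, as were other normalization, filters, clustering and left-out libraries. Fits were tested on simulated data. Replicates are clones of a genotype, and the p-values between genotypes refer to the variation among them. Those between classes or clusters refer to how the difference within a library varied over the 6 libraries, genotypes pooled. Intervals are exact binomial (Clopper-Pearson). Total UMIs per library were 24191242 to 49061693, and levels of a few CPM rest on few UMIs in small clusters. Counts of 3′ tags are not compared between genes. Gene positions are from GENCODE on GRCm38, the mm10 build.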

Additional observations from a re-analysis of the deposited data

Results flagged for a closer look

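In 4 of 36 groups of 6 libraries, the most extreme library lay further from its neighbour, as a share of the group's range, than Dixon's 95% critical value allows. Chance flags about 1 in 20 groups. Ptch1 in progenitor-like cells stood at 254 CPM in WT 1 and at 207 CPM in the next library, a gap of 0.644 of the range. Ptch1 in floor plate-like cells stood at 145 CPM in WT 1 and at 113 CPM in the next library, a gap of 0.681 of the range. WT 1 is the library of lowest depth per cell, with a median of 4157 UMIs, and the part of depth in these values was not tested. Gas1 in progenitor-like cells stood at 36.2 CPM in KO 1 and at 26.7 CPM in the next library, a gap of 0.715 of the range. Shh in the cluster led by Stra8, H19 and Tgfbi stood at 9.73 CPM in KO 2, from 18 UMIs, and at 3.14 CPM in the next library, a gap of 0.677 of the range.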

How the results depend on the processing

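Of the log2 differences of the 9 genes recomputed under another normalization, filter, test, block or clustering, 215 kept their direction and side of the threshold, 6 came to pass, 1 no longer passed and 5 changed sign. With no filter on low counts, 2 of the 9 genes passed in KO against WT over all cells (Gli3 and Gas1), 1 in DeltaSP against WT (Gli3), 1 in progenitor-like KO against WT (Gli3) and 1 in the KO interaction (Shh), Hhip in KO against WT turned to 0.021 and Ptch1 in DeltaSP against WT to 0.0032. DESeq2's Wald test passed 2 in KO against WT (Gli3 and Gas1) and 1 in DeltaSP against WT (Gli3). With the looser cell filter Hhip in KO against WT was 0.00927. The replicate block turned Shh to 0.28 in DeltaSP against WT and to 0.10 in progenitor-like KO against WT; the numbers name clones, and same-numbered libraries correlated at 0.137, -0.0167 and 0.0272, so the samples share only a number. The block called 1014 genes in KO against WT, against 1121 without it. The cause of these changes was not tested.

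Leaving out each library in turn gave 0 to 3 passing genes in KO against WT over all cells, 0 to 1 in progenitor-like, 0 to 2 in neuron-like and 0 to 1 in floor plate-like cells, and 0 to 1 in DeltaSP against WT over all and progenitor-like cells. The highest counts came without WT 2, which leaves WT 1 alone and assumes that it varies like the other groups. In these fits Shh ran from -0.74 to 2.82 in KO against WT over all cells, -1.11 to 2.67 in progenitor-like cells, -0.48 to 1.84 in floor plate-like cells, -0.34 to 1.43 in the KO interaction and -0.96 to 2.60 in DeltaSP against WT. Ptch1 ran from -0.072 to 0.41 in KO against WT and -0.27 to 0.22 in DeltaSP against WT, Hhip from -0.19 to 0.23 and from -0.016 to 0.41, and Smo in DeltaSP against WT from -0.030 to 0.32. Gli3 ran from -0.082 to 0.78 in floor plate-like KO against WT and from -0.10 to 0.12 between floor plate-like and other progenitor-like cells.

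Counts over all genes moved widely under the alternatives, from 4 to 3390 in KO against WT, 1 to 1326 in DeltaSP against WT and 1 to 422 in KO against DeltaSP over all cells. They ran from 0 to 2381 in progenitor-like, 3 to 2080 in neuron-like and 4 to 1023 in floor plate-like KO against WT, and from 10027 to 11958 between classes. Gli1 and Gli2, at 13 or fewer UMIs per library in floor plate-like cells, fell to the filter on low counts there and were not tested between genotypes. The replicate block lost the calls of Olig1 (0.0678) and Olig2 (0.0505) in neuron-like KO against WT.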
